A study of Mus musculus with 48 samples.

Results

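Gene expression in the colon epithelium of 12 week old *Il10*-/- mice was compared with that of C57BL/6J mice of the same age. The arrays were chosen by their labels alone: 6 of *Il10*-/- mice and 5 of C57BL/6J mice, 11 of the 48 arrays in the series. The *Il10*-/- mice were males of the line B6.129P2-Il10tm1Cgn/J from the Jackson Laboratory, which carry a targeted *Il10* allele on a C57BL/6J background. The controls were male C57BL/6JArc mice bred in a different colony, so that the missing gene, the colony of origin and any other difference between the lines cannot be told apart. Both strains were inoculated with *Enterococcus* strains and a complex intestinal flora, ate an AIN76A diet and were housed conventionally. Epithelial cells were cut out of frozen sections of proximal colon with a laser. According to the paper, lamina propria was avoided as far as possible, but was taken along in a section of a younger, non-inflamed *Il10*-/- mouse. The paper also states that immune cells of the lamina propria may have contaminated the samples. The RNA of each mouse, amplified over 2 rounds, gave 1 array, apart from C57BL/6J replicate 1, whose second array was left out.

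The colon epithelium is a single layer of cells that is renewed from stem cells at the base of the crypts. Its absorptive colonocytes take up salt, water and the products of bacterial fermentation, its goblet cells secrete mucus, and lymphocytes lie between these cells. Interleukin 10 is a cytokine that restrains macrophages and T cells, and mice that lack it develop colitis when they carry intestinal bacteria. Type II interferon made by T cells and natural killer cells acts on the epithelium, where it switches on genes for antigen presentation and for GTPases that attack intracellular microbes.

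Every value below is a log2 ratio of the sample, labelled with Cy3, over a reference pool of healthy mouse tissues labelled with Cy5. A difference is the mean of *Il10*-/- minus that of C57BL/6J on this scale, ± SE, and its adjusted p comes from limma with Benjamini-Hochberg adjustment over all probes. A gene was called differentially expressed at a fold change over 1.5 and an adjusted p under 0.05. Between 27.0 and 38.5% of the spots of these 11 arrays were well above background, a flag the image software sets for each spot, and the ranges of the strains overlapped. At 6 weeks, C57BL/6J replicate 1 had 12.4% and stood apart from the other 22 arrays fitted, and it bears on the 12 week comparison through the shared spread alone. All 18 markers of epithelium were well above background. *Il10* itself was not well above background on any of the 11 arrays (difference 0.25 ± 0.06, under the fold threshold), so the array gave no check of the genotype.

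Of 27433 genes tested, 784 (2.86%) were called between the strains, 444 (1.62%) higher and 340 (1.24%) lower in *Il10*-/- mice. The genes called higher included antimicrobial proteins, interferon-induced genes, chemokines and metalloproteinases, and those called lower included enzymes of xenobiotic metabolism, transporters and enzymes of fatty acid oxidation. Among the 11006 genes with a probe well above background on at least 5 of the 11 arrays, 6.83% were called, 3.8% higher and 3.03% lower. The median difference over all genes was -0.006, and the median size of a called difference was 1.29. Groups did not overlap for 646 of the 746 genes called by their printed probe (86.6%), against 4.43% of all genes. Genes are grouped below by function and cell type, with the number of members called in each direction. For functions the median difference of the list stands beside it, and for cell types the medians are given together, before the markers. A list mean, unlike its median, can be moved by a few members. Where a list had 0 called in a direction, it also had 0 at an unadjusted p under 0.05 in limma, apart from 1 lower for MHC class I, plasma cells and macrophages, 2 lower for receptors and metalloproteinases, and 1 higher for xenobiotic metabolism, and apart from the cell types with 0 called in both directions, whose counts are given with their markers. In bulk RNA of this kind, fewer cells of a type and less RNA per cell cannot be told apart.

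The arrays lay on 6 slides, and 5 of these held an array of each strain at 12 weeks. Of 733 called genes with a value on all 5 such slides, 721 differed in the called direction within all 5, and all 733 did within at least 4. These genes were chosen by a call on the same arrays. This agreement was therefore largely fixed in advance and is no separate check of the calls. Where a probe was not well above background on any array of the dimmer group, as for 119 called probes, the change is given as a lower bound. For it, the sample channel was used, the dimmer group was given, array by array, the lowest signal that was well above background there (or the probe's own, if higher), and its mean was compared with the measured mean of the other group. Dyes were not exchanged, so these bounds are open to the dye bias of a probe. For *Pla2g5* the bound came out above the fold of the ratios, so its difference is given instead.

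**Figure D1:**
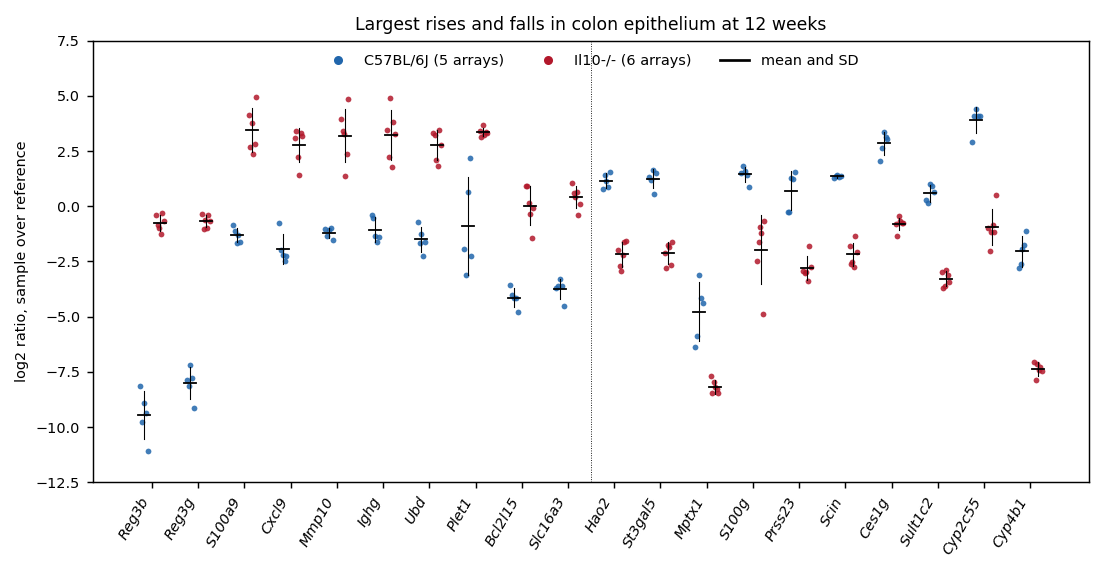
The 10 largest rises (left of the dotted line) and the 10 largest falls (right) among called genes whose groups did not overlap. Points are the log2 ratios of sample over reference of single arrays, 5 of C57BL/6J and 6 of *Il10*-/- mice, and bars are the mean and SD. *Reg3b* sits between -11.10 and -8.13 in C57BL/6J and near the reference in *Il10*-/- mice, and *Plet1* shows the widest spread among C57BL/6J arrays.

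The largest increases were in secreted C-type lectins that bind and kill bacteria. The log2 ratio of *Reg3b* (chromosome 6) was -8.13, -9.77, -8.92, -9.38 and -11.1 in the 5 C57BL/6J mice, and its lowest, median and highest values in the 6 *Il10*-/- mice were -1.25, -0.77 and -0.28. No C57BL/6J array had this probe well above background, and all 6 *Il10*-/- arrays did. The gap was therefore at least 197-fold (difference 8.72 ± 1.31, adjusted p = 0.00033 in limma). For its neighbour *Reg3g* the C57BL/6J values were -7.86, -8.13, -7.18, -7.77 and -9.15 and the *Il10*-/- values -1.03, -0.64 and -0.35, again without overlap. *Reg3g* rose by 7.35 ± 0.98 (adjusted p = 8.8e-05), a difference that rests on dim control signals, since 1 of the 5 C57BL/6J arrays was well above background.

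The list of antimicrobial and mucosal defence proteins held 36 measured genes, of which 12 rose and 1 fell, with a list median of 0.20. *S100a9*, a calcium-binding subunit of calprotectin that starves microbes of metal ions, was at -0.85, -1.1, -1.64, -1.29 and -1.6 in C57BL/6J mice and at 2.36, 3.29 and 4.97 in *Il10*-/- mice (4.75 ± 0.46, adjusted p = 1.9e-06). Its partner *S100a8* was not well above background in any C57BL/6J mouse and was at least 4.48-fold higher in *Il10*-/- mice. Both subunits are abundant in neutrophils, and their 6 *Il10*-/- values spanned more than 2 log2 units.

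The 12 rises also included a protease inhibitor and enzymes of the mucosal surface. *Slpi*, an inhibitor of neutrophil proteases, was at -1.57, -1.95, -1.56, -1.79 and -2.23 in C57BL/6J and at 0.54, 1.27 and 2.69 in *Il10*-/- mice, a rise of 3.25 ± 0.43 (adjusted p = 8.1e-05). *Pla2g5*, a secreted phospholipase, was dim on all C57BL/6J arrays (-2.89 to -2.18) and bright on all *Il10*-/- arrays (0.88 to 1.8), and rose by 3.73 ± 0.57 (adjusted p = 0.00039) against those dim signals. The groups of neither gene overlapped. The dual oxidase *Duox2*, which releases hydrogen peroxide at the apical surface, and its maturation factor *Duoxa2* rose by 1.99 and 2.88. The single decrease was *Wfdc2* (-2.81 ± 0.40, adjusted p = 0.00031), a protease inhibitor of mucosal secretions. *Nos2*, the inducible nitric oxide synthase, was well above background on 1 of the 11 arrays and had a difference of 0.05 ± 0.04.

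Interferon-induced genes formed the group with the highest median difference. Of 16 measured GTPases of the interferon-inducible families, 11 rose and 0 fell, all 16 differences were above 0, and the median was 1.6. *Igtp*, a GTPase that acts on vacuoles holding parasites, was at -3.13, -3.98, -3.61, -4.03 and -4.83 in C57BL/6J and at -0.21, -0.13 and 0.03 in *Il10*-/- mice (3.82 ± 0.54, adjusted p = 0.00017). The 6 *Il10*-/- values lay close together, more than 2 log2 units above the highest C57BL/6J value. Its relative *Iigp1* was at -3.38, -4.15, -3.97, -4.32 and -4.6 in C57BL/6J and at -0.72, -0.08 and 0.41 in *Il10*-/- mice (3.97 ± 0.49, adjusted p = 3.3e-05). *Gbp2*, a guanylate-binding protein that lyses bacterial compartments, was at -1.18, -2.07, -1.98, -2.57 and -2.21 and at 0.66, 1.44 and 1.8, a difference of 3.33 ± 0.50 (adjusted p = 0.00032). In the last 3 genes the C57BL/6J mouse nearest to *Il10*-/- was replicate 1. *Irgm2* (2.39 ± 0.37), *Tgtp1* (3.05 ± 0.46), *Ifi47* (2.52 ± 0.35) and *Gvin1* (2.41 ± 0.28) rose too, and the smallest called rise was that of *Gbp4* (0.66), whose groups overlapped.

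The promoters of these genes are shown because their members moved together and because interferon acts through known DNA elements. The letters GAAA, any 2 bases and again GAAA were taken for the interferon-stimulated response element (ISRE). TTC, any 3 bases and GAA were taken for the gamma-activated site (GAS), both on either strand. Each line gives 150 bases before the annotated start in RefSeq GRCm38.p6, 5′ to 3′ on the strand of the gene, with the matches in capitals.
Igtp, chr11:58199406-58199555, plus strand: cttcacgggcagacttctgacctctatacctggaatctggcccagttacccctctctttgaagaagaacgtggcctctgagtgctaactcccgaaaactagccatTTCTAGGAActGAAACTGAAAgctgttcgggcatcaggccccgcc
Irgm2, chr11:58214827-58214976, plus strand: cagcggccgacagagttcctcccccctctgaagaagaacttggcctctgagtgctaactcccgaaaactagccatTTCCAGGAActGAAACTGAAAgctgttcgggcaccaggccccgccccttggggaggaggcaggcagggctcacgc
Tgtp1, chr11:48992247-48992396, minus strand: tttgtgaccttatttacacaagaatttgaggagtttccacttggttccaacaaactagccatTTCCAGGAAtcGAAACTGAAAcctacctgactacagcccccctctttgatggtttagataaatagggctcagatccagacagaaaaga
Gbp2, chr3:142620513-142620662, plus strand: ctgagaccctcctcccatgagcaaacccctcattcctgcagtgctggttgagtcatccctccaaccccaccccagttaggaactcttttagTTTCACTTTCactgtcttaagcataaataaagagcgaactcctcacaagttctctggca
Socs1, chr16:10785537-10785686, minus strand: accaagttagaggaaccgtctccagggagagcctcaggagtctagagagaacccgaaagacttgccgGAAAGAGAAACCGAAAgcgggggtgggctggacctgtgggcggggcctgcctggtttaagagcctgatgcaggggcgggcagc
B2m, chr2:122147537-122147686, plus strand: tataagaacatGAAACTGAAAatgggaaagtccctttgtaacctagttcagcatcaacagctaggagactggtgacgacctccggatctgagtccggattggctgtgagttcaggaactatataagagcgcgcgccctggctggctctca

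*Igtp*, *Irgm2* and *Tgtp1* each hold a GAS followed after 2 bases by an ISRE, starting 34, 64 and 77 bases before the start for the ISRE. In *Gbp2* the ISRE reads on the opposite strand, and in *Socs1* 2 matches overlap. Over 250 bases, an ISRE match was found in 9 of 11 promoters of the measured GTPases (81.8%) that could be matched by symbol, and in 978 of all 32851 promoters (2.98%). For the GAS the figures were 5 of 11 (45.5%) and 2306 (7.02%). Over measured genes the ISRE share was 9 of 35 (25.7%) for other interferon genes, 3 of 19 (15.8%) for MHC class I and 1 of 10 (10.0%) for MHC class II. Over called genes it was 6 of 8 (75.0%) for the GTPases, 2 of 9 (22.2%) for other interferon genes, 2 of 6 (33.3%) for MHC class I and 0 of 4 for MHC class II. Among promoters of genes higher in *Il10*-/- mice, 38 of 414 (9.18%) held the ISRE letters, and among those of lower genes 5 of 362 (1.38%). GAS letters were in 44 (10.6%) of the first and 22 (6.08%) of the second. These are matches of letters, and binding was not measured.

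The ligand and other genes of this pathway were higher as well, with 11 of 39 other interferon genes called higher, 0 lower and a median of 0.92. *Ifng*, which encodes interferon gamma, was at -0.09, -0.21, 0.04, -0.23 and -0.38 in C57BL/6J mice, all near background, and at 1.44, 2.58 and 3.3 in *Il10*-/- mice. That is at least 4.25-fold (2.67 ± 0.37, adjusted p = 0.00014) in a tissue cut to hold epithelium. The receptor-side inhibitor *Socs1* rose by 3.05 ± 0.49, from -1.84 to -0.82 in C57BL/6J to 1.18 to 2.15 in the 5 *Il10*-/- mice with a usable spot. *Ubd*, a ubiquitin-like modifier induced by interferon gamma and TNF, was at -0.69, -1.66, -1.26, -2.25 and -1.62 and at 1.84, 2.99 and 3.44 (4.27 ± 0.40, adjusted p = 1.3e-06). The tryptophan-degrading enzyme *Ido1* rose by 2.96 ± 0.57, with C57BL/6J replicates 3 and 4 nearest to the *Il10*-/- mice.

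Not all of this list moved. *Irf7*, a master factor of the type I interferon response, had a difference of -0.07 ± 0.14 (adjusted p = 0.98), and *Irf1* one of 1.09 ± 0.30 (adjusted p = 0.065). The count of 11 was 20 when only the 11 arrays were fitted and 17 with array weights. It was 9 from processed signals, with the slide as a block and without *Il10*-/- replicate 2 or 5 or C57BL/6J replicate 5.

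Antigen presentation rose in part. Of 21 measured genes of MHC class I and its peptide supply, 6 rose and 0 fell (median 0.40). The immunoproteasome subunits *Psmb8* and *Psmb9*, which cut proteins into peptides for class I, were at -2.52 to -1.65 and -2.4 to -1.38 in C57BL/6J mice and at 0.24 to 0.78 and 0.03 to 1.09 in *Il10*-/- mice. Their differences were 2.5 ± 0.38 (adjusted p = 0.00033) and 2.53 ± 0.36 (adjusted p = 0.00017). The light chain *B2m* rose by 1.57 ± 0.26 on the printed probe and by 1.5 on a second, and the non-classical chains *H2-T22* and *H2-M3* by 1.53 ± 0.24 and 1.43 ± 0.17. The peptide transporter subunit *Tap2*, at 0.84, 1.17, -0.09, 0.08 and 1.17 in C57BL/6J and 0.34, 0.74 and 2.06 in *Il10*-/- mice, overlapped and was not called (0.29 ± 0.73, adjusted p = 0.98).

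Of 13 measured genes of MHC class II and its loading, 6 rose and 0 fell (median 0.27). *Ciita*, the factor that switches on class II genes, was dim in all 5 C57BL/6J mice (-0.38 to -0.04) and at 0.98 to 1.85 in *Il10*-/- mice, at least 2.48-fold higher (1.51 ± 0.14, adjusted p = 1.7e-06). *H2-DMb1*, a chaperone that loads peptides, was at -0.32, -0.59, -0.63, -0.61 and -1.04 and at 1.67, 1.92 and 2.39 (2.59 ± 0.31, adjusted p = 2.3e-05), and *H2-Eb1* rose by 1.52 ± 0.24. For *H2-Ab1* the probes disagreed, the printed one at 0.27 ± 0.68 and a second at 2.16. Professional antigen-presenting cells use the same genes. The macrophage and dendritic cell list, described further on, moved in the same samples and its part in these values was not tested.

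**Figure D2:**
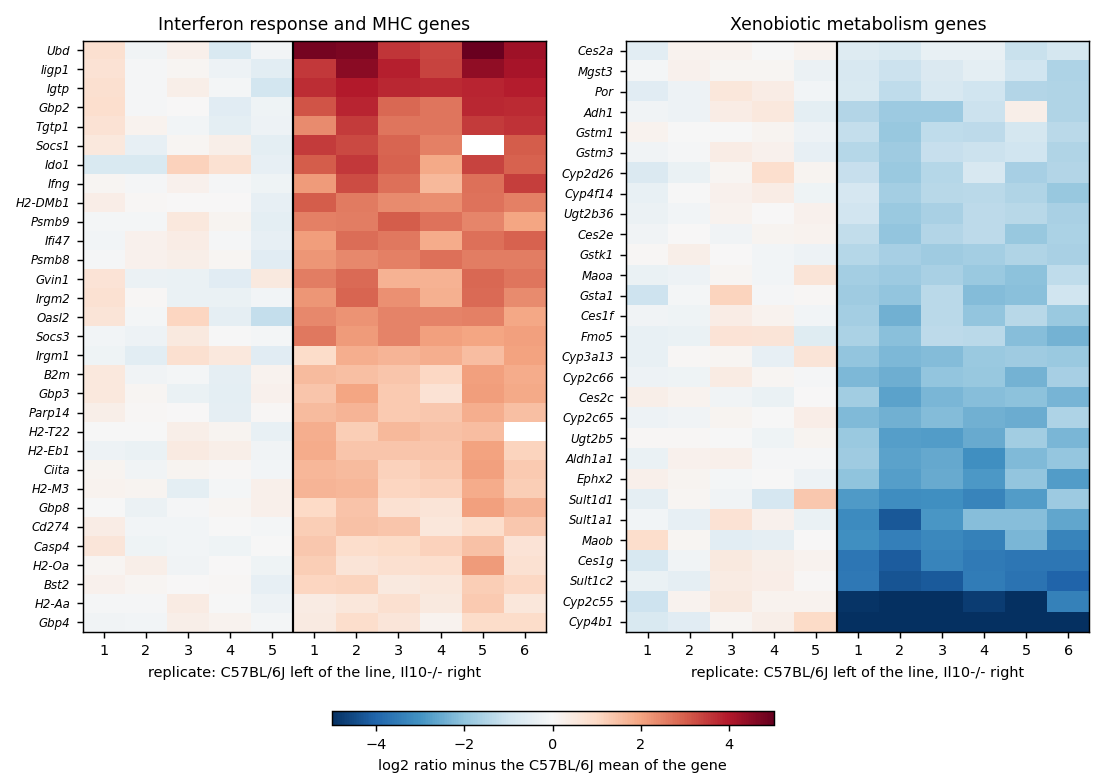
Genes called by their printed probe in the interferon and MHC lists (left) and in xenobiotic metabolism (right), apart from 1 at left that is not shown. Colours give the log2 ratio of each array minus the C57BL/6J mean of the gene, with C57BL/6J replicates 1 to 5 left of the black line and *Il10*-/- replicates 1 to 6 right of it, and blank cells are spots left out by the image software's outlier flags. The 6 *Il10*-/- columns are red at left and blue at right for nearly all genes, palest for *Gbp4* and *Ces2a*.

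Of 28 measured chemokines, 9 rose and 1 fell (median 0.47). *Cxcl9* and *Cxcl10*, interferon-induced ligands of CXCR3 that draw T cells, rose most. *Cxcl9* was at -0.74, -1.97, -2.21, -2.46 and -2.24 in C57BL/6J and at 1.42, 3.15 and 3.42 in *Il10*-/- mice (4.71 ± 0.51, adjusted p = 8e-06), and *Cxcl10* was at 0.01, -1.91, -2.19, -2.1 and -2.1 and at 0.33, 1.76 and 2.15 (3.24 ± 0.50, adjusted p = 0.00041). Groups did not overlap in either gene, but C57BL/6J replicate 1 lay more than a log2 unit above the other controls in both. The monocyte attractant *Ccl2* (1.85 ± 0.21), the macrophage chemokine *Ccl4* (1.71 ± 0.28) and the lymphoid chemokine *Ccl19* (2.31 ± 0.48) followed. *Ccl25*, which the gut epithelium makes to draw CCR9-bearing lymphocytes, fell by 1.27 on the log2 scale (adjusted p = 0.015), with overlapping groups. That decrease was not called without C57BL/6J replicate 1 or 5, from processed signals or from the sample channel alone.

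Cytokine genes rose in 8 of 33 measured cases, with 0 lower and a median of 0.23. *Il1b*, a product of activated myeloid cells, led them at 0.76, 0.33, 0.81, 0.70 and 0.65 in C57BL/6J and 2.4, 4.36 and 5.6 in *Il10*-/- mice (3.57 ± 0.47, adjusted p = 8.3e-05). *Il11* was at least 3.07-fold higher and the epithelial alarmin *Il33* at least 2.19-fold higher, each dim on all C57BL/6J arrays. *Il17a*, *Il22*, *Il23a* and *Il12b* were not well above background on any of the 11 arrays, and *Tnf* had a difference of 0.23 ± 0.09 (adjusted p = 0.28). The call for cytokines rested partly on single arrays, with 4 higher without C57BL/6J replicate 5, 5 without C57BL/6J replicate 3 and 5 without *Il10*-/- replicate 1. It rested on the processing too, with 4 higher from processed signals.

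Among 40 measured cytokine and chemokine receptors 2 rose and 0 fell (median 0.15). These were *Tnfrsf1b* (1.95 ± 0.23, adjusted p = 2e-05), a TNF receptor, and *Csf2rb* (1.34 ± 0.24, adjusted p = 0.0018), the shared chain of the receptors for GM-CSF and interleukin 3. That count was 5 when only the 11 arrays were fitted, 7 with array weights and 4 without *Il10*-/- replicate 4. Of 30 pattern recognition receptors and their adaptors, 6 rose and 0 fell (median 0.21). *Clec7a*, a receptor for fungal glucans, rose by 2.27 ± 0.31 and the cytosolic sensor of bacterial peptidoglycan *Nod1* by 0.94 ± 0.15. *Tlr6*, dim on all C57BL/6J arrays, was at least 1.7-fold higher.

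Enzymes that cut the extracellular matrix rose in 5 of 22 measured cases, with 0 lower (median 0.22). *Mmp10* was at -1.05, -1.35, -1.06, -0.99 and -1.53 in C57BL/6J mice and at 1.39, 3.33 and 4.86 in *Il10*-/- mice, at least 17.2-fold higher (4.4 ± 0.47, adjusted p = 6e-06). *Mmp3*, its close relative and neighbour on chromosome 9, was at -0.19, -0.03, -0.09, -0.26 and -0.09 and at 0.31, 2.17 and 5.44 (2.58 ± 0.56, adjusted p = 0.011). The 6 *Il10*-/- mice thus ran from just above the controls to more than 5 log2 units above them for *Mmp3*. *Mmp14* (1.25), *Adam8* (1.09) and the inhibitor *Timp1* (1.21) completed the count, which was 2 without C57BL/6J replicate 5.

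Other leading rises belonged to none of these groups. *Slc16a3*, the lactate exporter of glycolytic cells, was at -3.69, -3.63, -3.29, -3.61 and -4.5 in C57BL/6J and at -0.39, 0.51 and 1.04 in *Il10*-/- mice (4.15 ± 0.44, adjusted p = 5.3e-06). *Bcl2l15*, a member of the BCL2 family expressed in gut epithelium, was at -3.58, -4.03, -4.14, -4.17 and -4.8 and at -1.44, 0.02 and 0.93 (4.16 ± 0.73, adjusted p = 0.0016), and neither pair of groups overlapped. *Plet1*, a surface protein of epithelial progenitors, stood at -1.92, -3.12, 0.65, 2.2 and -2.26 in C57BL/6J mice and at 3.16, 3.36 and 3.67 in *Il10*-/- mice. Its difference of 4.25 ± 0.93 (adjusted p = 0.012) was 3.70 without C57BL/6J replicate 2, with an adjusted p of 0.051 in limma, so its call rested on that array.

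Xenobiotic metabolism held the most decreases. Of 68 measured cytochromes, carboxylesterases, sulfotransferases, glucuronosyltransferases and related enzymes, 29 fell and 0 rose, 61 differences were below 0, and the median was -0.70. *Cyp4b1*, a cytochrome that oxidises fatty acids and foreign compounds, was at -2.82, -2.6, -1.94, -1.75 and -1.1 in C57BL/6J and at -7.89, -7.34 and -7.05 in *Il10*-/- mice. It was not well above background on any of the 6 *Il10*-/- arrays and was at least 36.1-fold lower there (-5.33 ± 0.45, adjusted p = 3.4e-07). *Cyp2c55*, an arachidonic acid hydroxylase of the colon, was at 2.89, 4.1, 4.39, 4.1 and 4.07 and at -2.02, -1.08 and 0.53 (-4.85 ± 0.60, adjusted p = 3.9e-05). The 2 related cytochromes *Cyp2c65* and *Cyp2c66* fell with it, at -2.2 ± 0.44 and -2.1 ± 0.44.

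Enzymes that conjugate and hydrolyse foreign compounds were among the 29. *Sult1c2*, a cytosolic sulfotransferase, was at 0.28, 0.13, 0.99, 0.91 and 0.64 in C57BL/6J and at -3.71, -3.26 and -2.89 in *Il10*-/- mice (-3.88 ± 0.30, adjusted p = 1.3e-07), with a wide gap between the groups. *Ces1g*, a carboxylesterase that also hydrolyses lipids, was at 2.06, 2.65, 3.34, 3.14 and 3.03 and at -1.32, -0.78 and -0.45 (-3.65 ± 0.30, adjusted p = 3.4e-07), and a second probe gave -3.72. *Sult1a1* (-2.85 ± 0.32) and *Maob*, a mitochondrial amine oxidase (-3.12 ± 0.37), fell by nearly as much. *Ephx2*, *Aldh1a1*, *Ugt2b5* and *Por*, the reductase that feeds electrons to all microsomal cytochromes, fell by 2.49, 2.36, 2.34 and 1.13 on the log2 scale. Groups overlapped in only 3 of the 29 called genes, *Gsta1*, *Adh1* and *Ces2a*. *Nr1i2*, the nuclear receptor that senses foreign compounds, had a difference of -0.41 ± 0.33 (adjusted p = 0.88).

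Some transport genes of absorptive cells were also lower. Of 47 measured genes of ion, water and calcium transport, 10 fell and 1 rose (median -0.54). *S100g*, the calcium-binding protein that ferries calcium through enterocytes, was at 1.52, 1.8, 1.58, 1.43 and 0.89 in C57BL/6J and at -4.88, -1.4 and -0.67 in *Il10*-/- mice (-3.4 ± 0.61, adjusted p = 0.0019), with 1 *Il10*-/- mouse far below the others. *Car2*, the carbonic anhydrase that supplies protons and bicarbonate for exchange, was at 0.28, 0.97, 1.95, 1.24 and 1.79 and at -2.27, -1.46 and -0.60 (-2.76 ± 0.48, adjusted p = 0.0013). *Sgk1*, a kinase that raises sodium uptake in response to aldosterone, was at -0.44, -0.12, 0.39, -0.43 and 0.68 and at -3.89, -2.83 and -1.93 (-2.89 ± 0.50, adjusted p = 0.0014). No groups of these 3 genes overlapped.

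The water channel *Aqp8* fell from a narrow range of 1.46 to 1.72 in C57BL/6J mice to -1.63 to 0.83 in *Il10*-/- mice (-1.61 ± 0.36, adjusted p = 0.013). The phosphate carrier *Slc20a1* (-2.04 ± 0.36), the peptide hormone guanylin (*Guca2a*, -1.56 ± 0.29) and the vitamin D receptor (*Vdr*, -1.04 ± 0.22) were lower too. *Aqp4*, a basolateral water channel, was the 1 member that rose (1.53 ± 0.35, adjusted p = 0.017), and the count of rises was 0 with the replicate number or the slide as a block, from processed signals and without C57BL/6J replicate 3 or 5. The count of 10 decreases was 17 with array weights and 7 from processed signals or the sample channel alone. The apical exchangers *Slc9a3* (-1.12 ± 0.30, adjusted p = 0.052) and *Slc26a3* (-1.08 ± 0.56, adjusted p = 0.60) were not called.

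Of 40 measured carriers of organic solutes, 6 fell and 1, *Slc16a3*, rose (median -0.20). *Fabp2*, which binds fatty acids inside enterocytes, was at -2.44, -1.8, -1.39 and -1.6 in the 4 C57BL/6J mice with a usable spot and at -5.38, -4.91 and -4.31 in *Il10*-/- mice (-3.06 ± 0.26, adjusted p = 6.6e-07). The bile acid importer *Slc10a2* was at 1.21, 0.90, 1.71, 1.66 and 1.58 and at -1.03, -0.68 and -0.08 (-2.03 ± 0.32, adjusted p = 0.00051), and *Slc51a*, a subunit of the basolateral bile acid exporter, fell by 1.83 on the log2 scale. The efflux pump *Abcg2* (-2.44 ± 0.38) and the carnitine and ergothioneine carrier *Slc22a4* (-1.98 ± 0.34) completed the leading decreases, all with groups that did not overlap.

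Fatty acid oxidation and ketogenesis showed 15 of 63 measured genes lower and 0 higher, with 54 differences below 0 and a median of -0.41. *Pdk4*, the kinase that turns cells from glucose to fatty acid oxidation, was at -1.16, -1.93, -1.55, -1.03 and -1.54 in C57BL/6J and at -4.03, -3.68 and -2.72 in *Il10*-/- mice (-2.14 ± 0.30, adjusted p = 0.00015). Peroxisomal *Ehhadh* (-1.54 ± 0.26) and *Hsd17b4* (-1.09 ± 0.13) and mitochondrial *Acaa2* (-1.44 ± 0.19) were among the called members. *Ppara*, the nuclear receptor that governs these enzymes, was at -0.05, -0.38, -0.17, 0.01 and -0.59 and at -1.1, -0.67 and -0.41, groups that overlapped, and was not called (-0.47 ± 0.14, adjusted p = 0.11). The count of 15 was 9 with background correction by normexp, 7 from the sample channel alone and 23 with array weights. It was 7 or 9 without *Il10*-/- replicate 2 or 4, and 6 or 8 without C57BL/6J replicate 3 or 4.

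In mitochondrial respiration and central carbon metabolism 38 of 41 measured genes had a difference below 0 (median -0.41), but 1 was called. That gene was *Pck1*, a gluconeogenic enzyme, at -4.3, -4.74, -3.1, -3.16 and -4.29 in C57BL/6J and at -7.17, -6.5 and -5.02 in *Il10*-/- mice (-2.47 ± 0.48, adjusted p = 0.0039). Lipid synthesis and cholesterol genes were spread around 0, with 4 lower and 1 higher of 53 (median -0.02). *Apob*, the scaffold of chylomicrons, fell by 2.25 on the log2 scale (adjusted p = 0.00088) on its printed probe and by 2.16 on a second, and *Hpgd*, which inactivates prostaglandins, by 1.16 (adjusted p = 0.024). The 4 decreases were 1 without *Il10*-/- replicate 2 or C57BL/6J replicate 3, and 2 without C57BL/6J replicate 4 or 5. The 1 rise was 0 without *Il10*-/- replicate 2 or 6 or C57BL/6J replicate 1, 4 or 5.

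Other leading decreases lay outside the lists. *Scin*, an actin-severing protein of the brush border region, held to 1.3 to 1.44 in the C57BL/6J mice and fell to -2.75 to -1.35 in *Il10*-/- mice (-3.54 ± 0.45, adjusted p = 4.6e-05). *Hao2*, a peroxisomal hydroxyacid oxidase, was at 0.78, 1.44, 1.13, 0.87 and 1.57 and at -2.94, -2.08 and -1.59 (-3.33 ± 0.33, adjusted p = 2.6e-06), and *St3gal5*, which makes ganglioside GM3, was at 0.54 to 1.63 and at -2.79 to -1.61 (-3.36 ± 0.33, adjusted p = 2.6e-06). The groups stood clear of each other in all 3 genes. The serine protease *Prss23* fell by 3.52 on the log2 scale (adjusted p = 0.00021). The mucosal pentraxin *Mptx1* was at least 6.01-fold lower (adjusted p = 0.028), but its adjusted p was 0.071 with the replicate number as a block and 8 of the 11 fits that left out a single array did not call it.

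**Figure D3:**
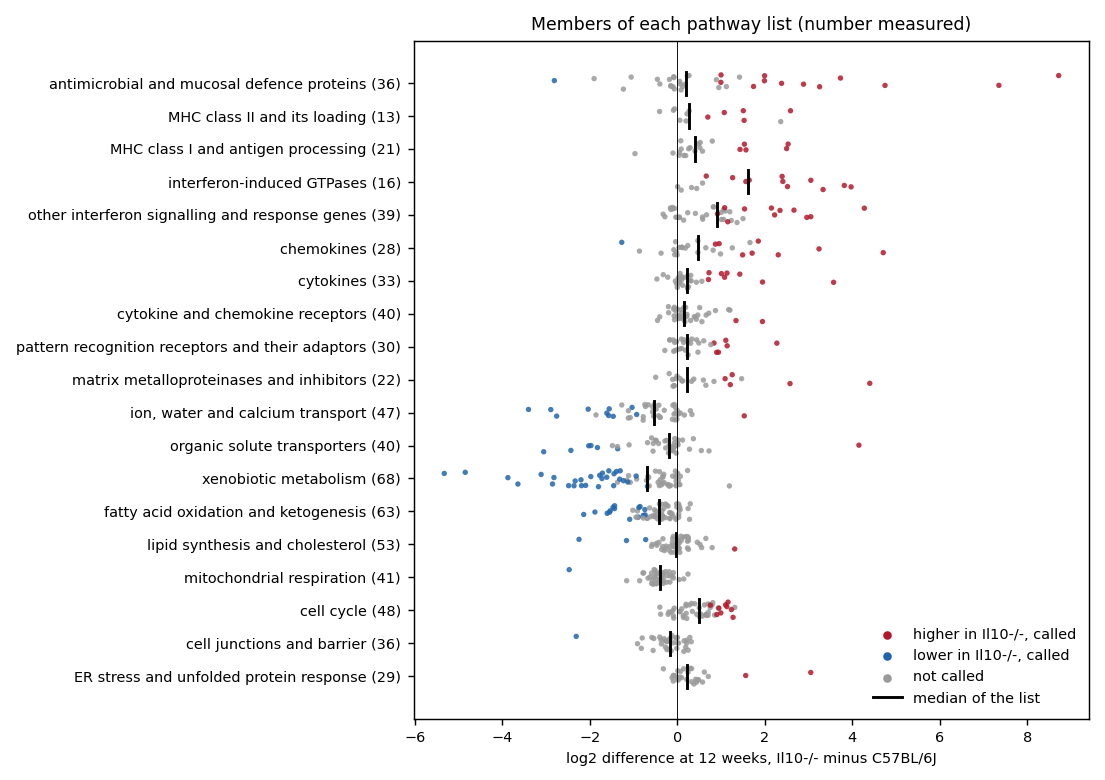
Differences between strains at 12 weeks for every measured member of the 19 pathway lists, with the number measured in brackets. Each point is a gene on the log2 scale, red where called higher, blue where called lower and grey where not called, and the black bar is the median of the list. The bar of the interferon-induced GTPases stands at 1.6 and that of xenobiotic metabolism at -0.70.

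Cell cycle genes were shifted upwards by small amounts, with 39 of 48 differences above 0, a median of 0.50 and 10 called higher. *Prc1*, which bundles the microtubules of the dividing cell, was at 0.67, 0.29, -0.14, -0.52 and -0.36 in C57BL/6J and at 0.92, 1.24 and 1.66 in *Il10*-/- mice (1.27 ± 0.32, adjusted p = 0.03). *Cenpe* (1.24 ± 0.22) and *Top2a* (0.67 ± 0.14) were called too. These calls depended on the processing: 4 genes were called with the replicate number or the slide as a block, 3 from the sample channel alone, 0 from the image software's processed signals and 16 with only the 11 arrays. From 2 to 4 were called without *Il10*-/- replicate 2, 3, 4 or 6 or C57BL/6J replicate 2, 3, 4 or 5.

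Of 36 measured genes of the cell junctions, which seal the epithelium, 1 fell and 0 rose (median -0.17). *Cldn8*, a claudin that limits sodium leak between colonocytes, was at 0.13, -0.20, -0.32, -0.18 and 0.31 in C57BL/6J and at -2.82, -2.48 and -1.72 in *Il10*-/- mice (-2.31 ± 0.26, adjusted p = 1.5e-05), with the groups far apart. *Cdh1* (-0.18 ± 0.31) was not called, and *Cldn2*, the pore-forming claudin, was not well above background on any of the 11 arrays. Of 29 genes of the unfolded protein response, 2 rose and 0 fell (median 0.21): *Asns*, which makes asparagine, by 1.56 ± 0.28 and *Chac1*, which degrades glutathione, by 3.05 ± 0.68. The call for *Chac1* rested on C57BL/6J replicate 5, without which it was 2.78 with an adjusted p of 0.056 in limma. The chaperones *Hspa5* (-0.04 ± 0.41) and *Canx* (-0.32 ± 0.34) were not called.

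Markers of the cells of the colon were then set side by side. Of 18 markers of epithelium 1, *Lgals4*, fell (-0.65 ± 0.17, adjusted p = 0.041). That call was lost with the replicate number (-0.55, adjusted p = 0.1 in limma) or the slide as a block. It was also lost with normexp, processed signals, the sample channel alone, outlier-flagged spots kept or only the 11 arrays fitted. The same held without *Il10*-/- replicate 2, 5 or 6 or C57BL/6J replicate 3, 4 or 5. The mean log2 ratio of the list overlapped between *Il10*-/- (0.02 to 0.63) and C57BL/6J mice (0.00 to 1.1). Its differences were below 0 for 15 markers and above 0 for 3. At an unadjusted p under 0.05 in limma, 4 were lower and 0 higher. Within the 5 slides that held both strains, the list mean was lower in *Il10*-/- mice on 4 and higher on 1. Among 20 markers of absorptive colonocytes 5 fell and 1 rose, and their mean ran from -0.48 to -0.03 in *Il10*-/- and from 0.05 to 0.69 in C57BL/6J mice. These means did not overlap, and the part of this shift in the decreases of transport genes and enzymes was not tested. *Car1* (-1.47 ± 0.26), *Aqp8*, *Guca2a*, *Slc20a1* and *Fabp2* were the members that fell, all but *Car1* described above, and *Ms4a10* rose (1.68 ± 0.35). The count of 5 was 3 from the sample channel alone and 8 with array weights or without C57BL/6J replicate 1 at 6 weeks.

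Of 16 goblet cell markers 1 fell, the secreted protease *Clca1*, at -1.76, -1.77, -0.32, -0.37 and -1.65 in C57BL/6J and at -4.99, -3.54 and -3.06 in *Il10*-/- mice (-2.62 ± 0.50, adjusted p = 0.0037). The main gel-forming mucin *Muc2* (-0.44 ± 0.56) and *Tff3* (-0.50 ± 0.33) were not called. Of 21 stem and progenitor markers (mean -0.057 to 0.287 in *Il10*-/- against -0.373 to -0.058 in C57BL/6J mice) 1 rose: *Ly6a*, known from regenerating epithelium and from lymphocytes, at -4.8, -4.62, -2.6, -2.89 and -4.59 and at -1.04, -0.64 and 0.22 (3.39 ± 0.63, adjusted p = 0.0027). *Lgr5*, the marker of cycling stem cells, had a difference of 0.15 ± 0.21 (adjusted p = 0.98). Of 19 enteroendocrine and tuft cell markers 3 fell, chromogranin A (*Chga*, -1.79 ± 0.40), secretin (*Sct*, -1.65 ± 0.27) and *Trpm5*, and 1 rose, *Plcg2*. The 3 decreases were 1 without C57BL/6J replicate 3 or 4, and with the replicate number as a block *Trpm5* lost its call (adjusted p = 0.057 in limma), as did the printed probe of *Plcg2* (adjusted p = 0.055). The count of rises was 0 with the slide as a block, from processed signals and without *Il10*-/- replicate 1, 2 or 5 or C57BL/6J replicate 2, 3, 4 or 5. Within each of the 5 slides that held both strains, the goblet cell mean was lower in *Il10*-/- mice (differences of -0.904 to -0.041). So was the mean of enteroendocrine and tuft cells (-0.702 to -0.245).

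Some markers of immune cells rose in the dissected epithelium of *Il10*-/- mice, with counts that differed between cell types. Of 15 markers of intraepithelial lymphocytes 6 rose and 0 fell, and the list mean was 0.68 to 1.21 in *Il10*-/- and -0.02 to 0.27 in C57BL/6J mice. *Cd8a* was at -0.48, -0.37, -0.69, -0.48 and -0.28 and at 0.23, 0.88 and 1.6 (1.31 ± 0.21, adjusted p = 0.00061), and the granule protease *Gzmb* was dim in C57BL/6J mice and at least 3.34-fold higher. Of 20 T cell markers 5 rose, with a list mean of 0.40 to 0.75 against -0.03 to 0.26. *Icos*, a costimulator of activated T cells, was at 1.19, 0.76, 0.97, 0.49 and 0.95 and at 2.26, 2.85 and 3.35 (2.01 ± 0.31, adjusted p = 0.00047), while *Cd3e* had a difference of 0.12 ± 0.14, and *Foxp3*, *Ctla4* and *Cd28* were not well above background on any array. The groups overlapped for neither list mean. These lists moved with *Ifng* and the interferon-induced genes, and their part in those values was not tested.

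Neutrophil markers rose in 9 of 19 cases with 0 lower, and their mean was 0.40 to 1.28 in *Il10*-/- against -0.29 to -0.08 in C57BL/6J mice. *S100a8* and *S100a9* are among the 9, and the receptor for formylated peptides *Fpr2*, dim in all C57BL/6J mice, was at least 3.14-fold higher. The granule genes *Elane*, *Camp* and *Ngp* and the receptor *Csf3r* were not well above background on any array, and *Mpo* had a difference of -0.01 ± 0.13. Of 26 macrophage and dendritic cell markers 7 rose and 0 fell, with a mean of 0.51 to 1.2 against 0.01 to 0.30. *Clec4e*, a receptor for mycobacterial lipids, was at -0.01, 0.16, 0.06, -0.05 and 0.04 in C57BL/6J and at 1.51, 3.4 and 4.23 in *Il10*-/- mice, at least 6.65-fold higher, and *Itgax* rose by 1.51 ± 0.28. *Adgre1*, the F4/80 antigen, was not called (0.34 ± 0.23, adjusted p = 0.81), and *Itgam* and *Mrc1* were not well above background on any array. The part of these cells in the rises of *Il1b*, *S100a9* and the metalloproteinases was not tested.

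An antibody transcript was among the 10 largest rises of called genes whose groups did not overlap. *Ighg*, the constant region of IgG heavy chains as the array names it, was at -0.38, -0.53, -1.35, -1.6 and -1.4 in C57BL/6J and at 1.77, 3.36 and 4.88 in *Il10*-/- mice (4.29 ± 0.54, adjusted p = 4.6e-05). It was well above background on all 11 arrays, and 2 further probes of that name were not called. Of 11 plasma cell markers 4 rose and 0 fell (mean 0.52 to 1.24 against 0.18 to 0.57), among them *Pou2af1* (1.78 ± 0.30) and *Mzb1* (1.33 ± 0.25). These means overlapped, but within each of the 5 slides with both strains the mean was higher in *Il10*-/- mice (0.315 to 0.755). The joining chain *Jchain* was not called (0.55 ± 0.47, adjusted p = 0.90). Of 15 B cell markers 3 rose (mean -0.09 to 0.85 against -0.36 to -0.14), a count that was 1 with the replicate number as a block and 0 without any single one of the C57BL/6J arrays or without *Il10*-/- replicate 3 or 6.

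Of 16 markers of endothelium, 16 of smooth muscle, 10 of mast cells and 15 of enteric neurons and glia, limma called 0, and the list means overlapped between strains. At an unadjusted p under 0.05 there were 1, 3 and 1 lower for endothelium, smooth muscle and neurons and glia, and 1 higher for mast cells. The smooth muscle mean was -1.73 to -0.60 in *Il10*-/- and -1.19 to -0.46 in C57BL/6J mice, and within each of the 5 slides that held both strains it was lower in *Il10*-/- mice (differences of -0.891 to -0.208). Fibroblast markers counted 2 higher and 1 lower of 20, the matrix protein *Sparc* (1.15 ± 0.27), the shared T cell and fibroblast antigen *Thy1* (1.5 ± 0.29) and *Pdgfra* (-1.0 ± 0.27). The decrease was 0 with recomputed loess ratios, normexp, processed signals, the sample channel alone or the second array averaged in, and without any single *Il10*-/- replicate from 1 to 4 or C57BL/6J replicate 1, 3, 4 or 5. The 2 rises were 1 without C57BL/6J replicate 2, 4 or 5.

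**Figure D4:**
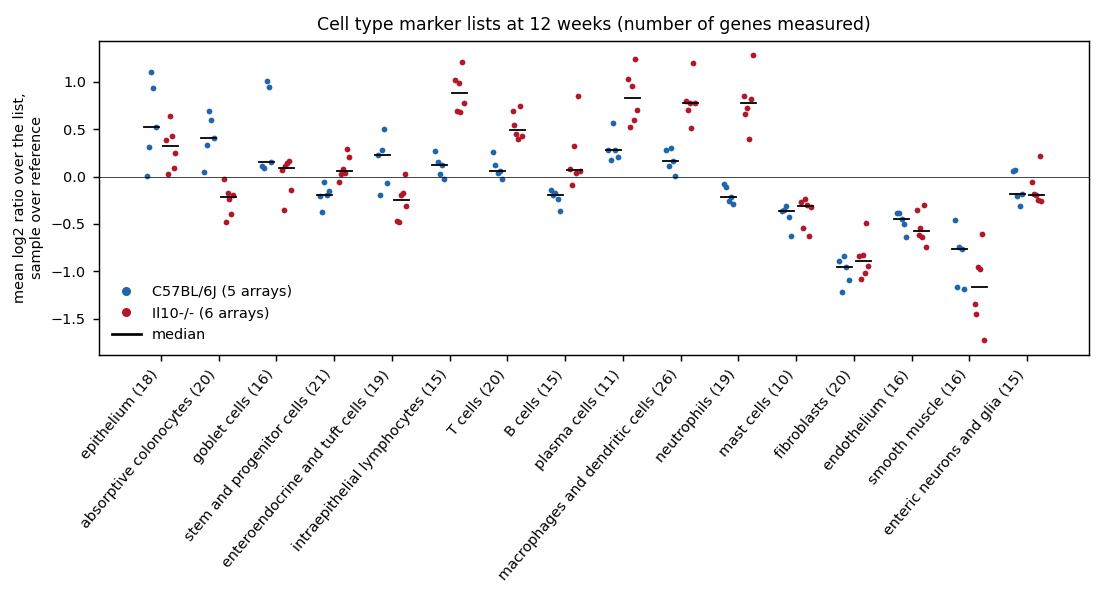
Mean log2 ratio of sample over reference across each list of cell type markers, for the 5 C57BL/6J and 6 *Il10*-/- arrays at 12 weeks, with the number of genes measured in brackets and a bar at the group median. *Il10*-/- arrays stand above all C57BL/6J arrays for intraepithelial lymphocytes, T cells, B cells, macrophages and dendritic cells, neutrophils and, narrowly, stem and progenitor cells, and below them for absorptive colonocytes, while the epithelium points mix.

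The same contrast was made at 6 weeks, 3 days after inoculation and in other mice. A gene without a call at that age may still have differed. At that age 17 genes (0.062%) were called between the strains, 15 of them in the same direction as at 12 weeks and 0 in the opposite one (also 0 at an unadjusted p under 0.05 in limma). The adaptor *Tifa*, which passes signals from bacterial sugars to NF-kappaB, differed by 2.35 ± 0.33 at 6 weeks and by 2.28 ± 0.34 at 12 weeks. *Socs3*, an inhibitor of STAT3 signalling, differed by 2.24 ± 0.33 and by 2.22 ± 0.33. *Pla2g5*, *Top2a*, *Cenpe*, *Iqgap3* and D17H6S56E-5 were higher at both ages too, and *Cyp4f14* and *Ttc3* lower. The change of the strain difference with age was called by limma for 0 of the 15 and had an unadjusted p under 0.05 for 1.

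Of the 15 genes, 5 lie on chromosome 1, which carries *Il10* (131019845 to 131024970 in GRCm38.p6), and 1135 of 19873 placed genes on the array do (5.71%), as do 48 of 759 placed genes called at 12 weeks (6.32%). *Rab7b*, a GTPase of late endosomes and the nearest at 0.7 Mb (131688681 to 131715443), was at 2.76, 1.92, 1.41, 1.84 and 2.09 in C57BL/6J and at -0.41, -0.27 and -0.04 in *Il10*-/- mice at 12 weeks (-2.26 ± 0.28, adjusted p = 2.9e-05). At 6 weeks it differed by -2.18 ± 0.26. *Mgat5*, a glycosyltransferase at 3.8 Mb, fell by 2.07 at 12 and by 1.97 at 6 weeks on 1 probe, while its printed probe was at -0.06 ± 0.17. *Stk25*, a kinase at 37.4 Mb, was at 1.52, 1.69, 2.08, 2.03 and 2.04 and at -0.63, -0.21 and 0.02 (-2.15 ± 0.22, adjusted p = 3.1e-06), and differed by -1.98 ± 0.21 at 6 weeks. *Gin1* at 33.2 Mb was lower on 1 of its 2 probes and *Wdfy1* at 51.3 Mb higher (1.49 ± 0.19) at both ages.

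The strain difference changed with age for 74 genes (0.27%) in a test of the interaction of strain and age. Of these, 72 were also called at 12 weeks, 56 higher and 16 lower. Limma called 0 of the 74 at 6 weeks, where 16 had an unadjusted p under 0.05. *Ighg* led with a change of 5.37 ± 0.74 (adjusted p = 0.0012), followed by *S100a9* (5.06 ± 0.63, adjusted p = 0.00067) and *Mmp10* (4.82 ± 0.65, adjusted p = 0.00094). At 6 weeks these 3 genes had strain differences of -1.08 ± 0.51, -0.31 ± 0.44 and -0.42 ± 0.45. *Slc16a3* (4.48 ± 0.60) and *Ubd* (4.07 ± 0.55) came next. Within the lists the interaction was called for 4 of 19 neutrophil markers, 3 of 20 T cell markers and 6 of 68 genes of xenobiotic metabolism, *Cyp4b1* (-3.28 ± 0.62) and *Ces1g* (-2.65 ± 0.42) among the last. For *Mmp10* and *Cyp4b1*, dim in the lower group at 12 weeks, these sizes rest in part on dim signals.

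*Reg3b* was called neither at 6 weeks nor for the interaction. Its strain difference at 6 weeks was 4.79 ± 1.25 (adjusted p = 0.33 in limma), where the C57BL/6J values ran from -10.40 to -0.75, and the interaction was 3.93 ± 1.81 with an adjusted p of 1.00. The 6 week C57BL/6J group holds the replicate 1 array that had 12.4% of its spots well above background. Without that array the interaction count was 108 and the 6 week count 22. Without C57BL/6J replicate 2 of the 12 week old mice they were 47 and 11.

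**Figure D5:**
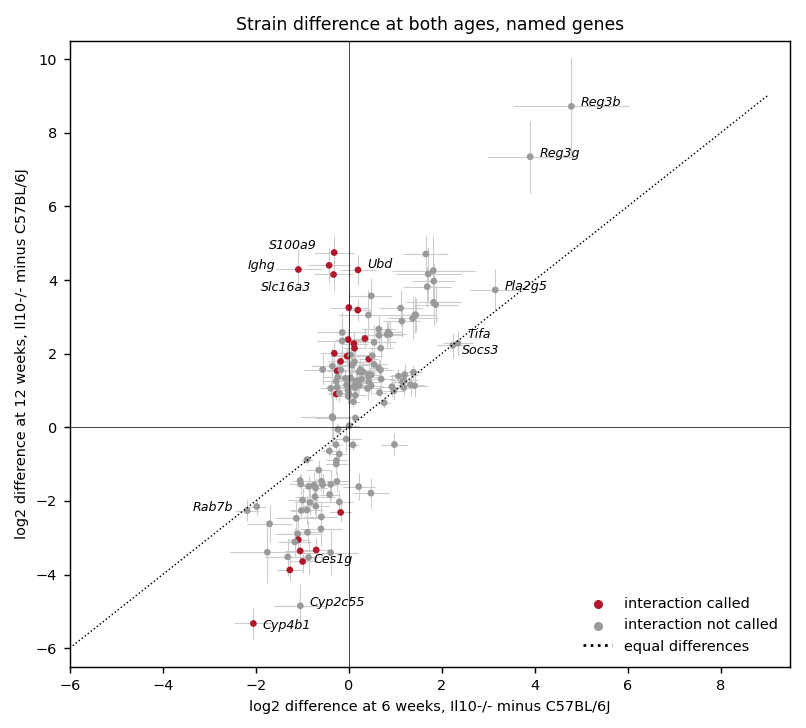
Strain differences of the named genes at 6 weeks (horizontal) and 12 weeks (vertical) on the log2 scale, with SE bars and a dotted line of equal differences. Red points have a called interaction, and *S100a9*, *Ighg* and *Slc16a3* stand at -0.31, -1.08 and -0.33 at 6 weeks and above 4 at 12 weeks, while *Tifa*, *Socs3* and *Rab7b* lie by the dotted line.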

How the data were processed

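RNA of laser-dissected epithelium from 11 mice aged 12 weeks (6 *Il10*-/-, 5 C57BL/6J) and 12 mice aged 6 weeks was measured on 44K two-colour arrays. The authors deposited Cy5 over Cy3 log2 ratios, made without background correction and with global loess in limma (R 2.14.1 in the submitters' processing notes), and, per the file headers, spot intensities and flags of the image software. The column medians of the 11 arrays were -0.00584 to 0.0203, the table correlated with a loess of the intensities at 0.998 or more, and 0 columns held no sample. Here the sign was turned, flagged outlier spots (153 to 398 an array) and control spots were left out and spots were averaged per probe. Limma 3.58.1 in R 4.3.3 was fitted to 23 arrays in 4 groups. The second array of C57BL/6J replicate 1 (r = 0.978 with the first) was left out. The 41174 probes were named for 27433 genes through RefSeq accessions (27589 probes), symbols or the file's own name (7758 probes). The printed probe of a gene is the brightest, and a gene was called if any of its probes was.

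Named genes were *Il10*, the genes the study measured by qPCR, the 10 largest rises and falls, up to 6 called members of each list, genes called at both ages and the 5 largest interactions, plus list members whose role is described. Members and lists were chosen with earlier results of these data known. Deviations from the group means correlated at 0.388, 0.133, 0.45, 0.491 and 0.201 between arrays of the same replicate number, 4 of these pairs sharing a slide. Since all 5 were above 0.1, the replicate number was used as a block in an alternative fit. The slide was the block in another, and the main fit had no block. Unlike numbers correlated at up to 0.505, on a shared slide, and 0.404, on different slides, so like numbers did not stand apart from unlike ones. The model was tested on simulated data. Alternatives were other normalizations, filters, blocks and weights and leaving out single arrays. Some genes are not reported here.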

Additional observations from a re-analysis of the deposited data

Results flagged for a closer look

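The strain difference of 25 named genes changed with age by the interaction test. Immune and defence genes had a larger difference at 12 than at 6 weeks: *Ighg* by 5.37, *S100a9* by 5.06, *S100a8* by 2.39, *Slpi* by 3.25, *Clec4e* by 2.99, *Clec4d* by 1.97, *Clec7a* by 2.16 and *Fpr2* by 2.02 on the log2 scale. The lymphocyte genes *Icos*, *Gzmb* and *Cd5* changed by 2.32, 1.96 and 1.17. Among interferon and antigen presentation genes the values were 4.07 for *Ubd*, 2.06 for *Gvin1*, 1.78 for *H2-T22* and 1.26 for *Ciita*. *Mmp10* changed by 4.82, *Slc16a3* by 4.48 and *Ccl2* by 1.42. The decreases of 7 genes were larger at 12 weeks, with interactions of -3.28 for *Cyp4b1*, -2.65 for *Ces1g*, -2.63 for *Hao2*, -2.61 for *Sult1c2*, -2.32 for *St3gal5*, -2.14 for *Cldn8* and -1.97 for *Fabp2*. All 25 had an adjusted p under 0.05 in limma, over all probes, and a fold change over 1.5 between the strain differences. *S100a8*, *Clec4e*, *Fpr2*, *Mmp10*, *Gzmb*, *Ciita* and *Cyp4b1* are among those given above as lower bounds at 12 weeks. The sizes of their interactions therefore rest in part on dim signals.

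Single arrays lay apart from the rest of their group by Dixon's test in 15 of 318 groups of named genes (4.72%), close to the 1 in 20 that chance passes. In C57BL/6J mice the highest array stood apart for *Cxcl9* at -0.74 and *Cxcl10* at 0.005, both replicate 1. The lowest C57BL/6J array stood apart for *Cyp2c55* at 2.89, also replicate 1, and, in replicate 5, for *Chac1* at -3.0, *Ms4a10* at -3.02, *Tyrobp* at -0.019 and *Retnlg* at -0.65. In *Il10*-/- mice the lowest array stood apart for *Ido1* at 0.96 and *Pla2g12b* at -1.08. The highest did for *Maob* at -3.04, *Acsm3* at -4.42, *Acsl3* at 0.36, *Pck1* at -5.02, *Fcer1g* at 3.15 and *Ms4a1* at 2.45. The cause of these values was not tested.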

How the results depend on the processing

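The number of genes called between the strains, 784, was 619 to 748 when single 12 week arrays were left out, 760 with the replicate number as a block and 737 with the slide as a block. It moved most with array weights, to 1314 (623 higher and 693 lower), with the 11 arrays alone, to 1135 (587 higher and 550 lower), and with the image software's processed signals, to 499 (272 higher, 227 lower, 394 of them shared with the 784). The sample channel alone gave 425 higher and 209 lower (67.0% higher, against 56.6%). Leaving out C57BL/6J replicate 1 at 6 weeks gave 970 (517 higher and 454 lower), among them all 784, 22 at 6 weeks and 108 for the interaction. A gene can count in both directions through different probes, as 2 did with array weights, 2 with the 11 arrays alone and 1 without that 6 week array. Leaving out single 12 week arrays gave 337 to 440 higher and 234 to 322 lower. The median difference moved by over 1.5 times under at least 1 setting in 30 of 35 gene lists and changed sign in 5, those of lipid synthesis, mast cells, fibroblasts, endothelium and enteric neurons and glia. It ran from 1.532 to 2.469 for interferon-induced GTPases, -1.344 to -0.655 for xenobiotic metabolism (-1.256 from processed signals), -0.725 to -0.315 for fatty acid oxidation and -0.459 to -0.083 for carriers of organic solutes. For MHC class II it ran from 0.148 from the sample channel alone to 1.072 with dim probes left out (0.6 with array weights), for MHC class I from 0.139 with array weights to 0.624 without C57BL/6J replicate 3 (0.232 without C57BL/6J replicate 1), for chemokines from 0.237 to 0.733 and for T cells from 0.075 to 0.9. It ran from 0.129 to 1.059 for antimicrobial proteins, 0.083 to 0.572 for cytokines, 0.141 to 1.091 for metalloproteinases and 0.067 (without C57BL/6J replicate 2) to 0.27 for the unfolded protein response. The range was 0.104 to 0.303 for receptors, 0.136 to 0.316 for pattern recognition receptors and -0.264 to -0.089 for cell junctions. Among marker lists it was 0.459 to 1.465 for neutrophils, 0.209 to 1.074 for macrophages and dendritic cells, 0.274 to 1.054 for plasma cells and 0.119 to 1.087 for B cells. Leaving out dim probes also changes which members enter a list.

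The interaction count of 74 was 44 from processed signals, 128 with dim probes left out, 151 with array weights, 65 with the replicate block and 47 to 111 with single arrays left out, 47 without C57BL/6J replicate 2 and 111 without *Il10*-/- replicate 4, both at 12 weeks. The 6 week count of 17 was 3 from processed signals, 32 with dim probes left out, 12 with the replicate block and 11 to 22 with single arrays left out, 11 without C57BL/6J replicate 2 at 12 weeks. Other omissions of 6 week arrays were not run. The cause of these shifts was not tested.

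Of 159 genes named by rule, not counting list members named for their role alone, 147 were called by their printed probe and 86 of these under every setting that could be fitted. Over all settings and these genes, 3641 comparisons kept direction and call, 317 lost the call, 13 gained one and 0 changed direction. Calls were lost most often without C57BL/6J replicate 5 (30) or from processed signals (45). The median difference of all genes was at most 0.015 from 0 under any setting. Only 27.0 to 38.5% of spots were well above background, which limits what can be said of dim genes. The paper also reports lower RNA integrity for dissected samples than for intact colon, and amplified the full volume where RNA was too dilute to quantify. It names inaccurate values for some mRNAs as possible when few cells are used. The part of RNA integrity in these values was not tested.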
